A study of Parasteatoda tepidariorum with 20 samples.

Results

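Fatty acid-binding proteins are small cytosolic carriers that hold 1 long-chain fatty acid inside a barrel of beta strands and move it between membranes, enzymes and the nucleus. The cellular retinoic acid-binding proteins of vertebrates belong to the same family and carry retinoids in the same way. In insects the best known member is the abundant carrier of flight muscle, which supplies the mitochondria with fuel. A spider embryo feeds on the lipid and protein of its yolk until after hatching.

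The family was taken as every AUGUSTUS gene model of *Parasteatoda tepidariorum*, the common house spider, whose description in the data table contains fatty acid-binding protein or cellular retinoic acid-binding. The search found 7 of the 27990 gene models of the Ptep_1.0 assembly, and 0 of the 7 had the retinoic acid-binding wording. Messenger RNA of whole embryos of the Osaka isolate, kept at 25 °C with no treatment, was sequenced at 10 stages in 2 developmental series, 1 from each of 2 pairs of parents. The stages were st1 (9 h after egg laying, 16 cells), st2 (15 h, 256 cells), st3 (20-21 h), st4 (25-26 h), st5 early (31-32 h), st5 late (36-37 h), st6 (42-43 h), st7 (50 h), st8 (60 h) and st10 (78 h). Each stage has 1 library per series, made from 10 to 100 pooled embryos, so n = 2 throughout. The spread given is that between the 2 series, in which parents, embryo pool and library cannot be told apart. Abundance is in RPKM, which scales the reads of a gene model by its exon length and by the reads of the library, between 9160802 and 17019009. In whole embryos, a change in the number of cells of a type and a change in RNA per cell cannot be told apart.

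The 7 gene models carry 5 gene IDs and lie on 6 scaffolds. aug3.g3973 (LOC107451335) lies on scaffold 516, minus strand, 333686 to 360164. aug3.g21231 (LOC107450537) occupies bases 1 to 11122 of scaffold 4738 (plus strand), so it begins at the very end of its scaffold. aug3.g24515 (LOC107444014) is the only gene model of scaffold 25967, on the plus strand from 2 to 1441. aug3.g2362 (scaffold 383, plus strand, 10806 to 30149) and aug3.g2364 (scaffold 383, plus strand, 61376 to 67849) share LOC107448715, of which they are described as variants X2 and X1, with 31226 bp between them. aug3.g13389 (scaffold 1637, minus strand, 228597 to 242304) and aug3.g17785 (scaffold 2656, plus strand, 129026 to 135474) share LOC107438791. Models that share an ID can be parts of 1 gene or near-identical copies. The counting could split their reads, or the authors' filter on uniqueness could remove reads that match both. Of the 5 IDs, those of aug3.g3973, of aug3.g21231 and of the scaffold 383 models are also listed in RefSeq's later CAS_Ptep_4.0 assembly. The recovered exon lengths were 838 bp for aug3.g3973, 407 bp for aug3.g21231, 303 bp for aug3.g24515, 656 bp for aug3.g2362 and 584 bp for aug3.g2364.

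The members fell into 3 patterns. aug3.g21231 and aug3.g24515, called the pair below, were low up to st3, at 7.93 RPKM or less. They rose steeply into st4 and were abundant from st5 early on. aug3.g3973 was present from st1 and by the mean of the series had its largest step between st8 and st10. aug3.g2362 and aug3.g2364 had at most 71 reads in any library, and the last 2 members were at or near 0. The pair was chosen by its rise in mean log2(RPKM + 1) from st1 to st10, the largest of the whole table, so its changes over the stages are described without a test. The other 3 members that passed the filter of at least 1 RPKM in at least 2 samples were tested.

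**Figure D1:**
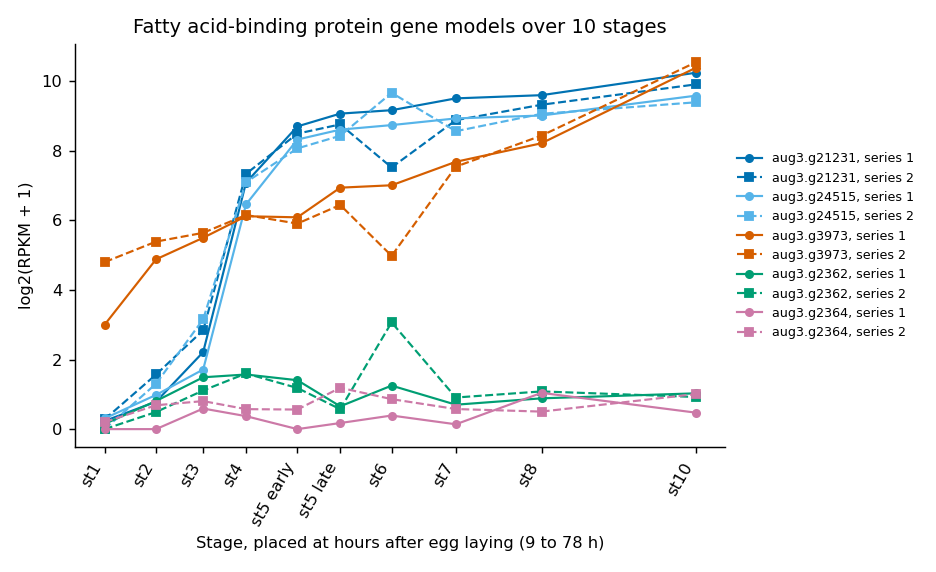
Abundance of the 5 gene models that passed the filter, as log2(RPKM + 1), in each library against hours after egg laying. Each point is 1 library, solid lines with circles are series 1 and dashed lines with squares series 2. The pair (blues) climbs between st3 and st4, aug3.g3973 (orange) overtakes it at st10, and the st6 library of series 2 departs from series 1 in 4 of the 5 gene models.

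At st1 aug3.g21231 was represented by a single read per series (0.176 and 0.216 RPKM, series 1 given first here and below). At st2 it was at 0.727 and 1.97 RPKM (3 and 9 reads), and at st3 at 3.64 and 6.17 RPKM (15 and 23 reads). The st1 values rest on fewer than 3 reads, the floor used here for what a library can resolve. At st4 it stood at 135 and 161 RPKM, which rest on 639 and 689 reads. The step from st3 to st4 was thus 37.2-fold in series 1 and 26.1-fold in series 2, the steepest of its 9 steps with at least 3 reads on both sides in each series. Later values were 416 and 360 RPKM at st5 early, 537 and 433 RPKM at st5 late, 575 and 183 RPKM at st6, 728 and 471 RPKM at st7, 776 and 641 RPKM at st8, and 1214 and 962 RPKM at st10. Its value was above that of the stage before at 9 of 9 steps in series 1 and at 8 of 9 in series 2, where the exception was st6. Between st4 and st10 the gain was 8.97-fold in series 1 and 5.97-fold in series 2.

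aug3.g24515 followed almost the same course at a somewhat lower level. Its reads numbered 1 and 0 at st1, 3 and 5 at st2, and 7 and 22 reads at st3 (2.28 and 7.93 RPKM). It then reached 87.1 and 136 RPKM at st4, a step of 38.2-fold and 17.1-fold. The following stages gave 320 and 268 RPKM at st5 early, 390 and 345 RPKM at st5 late, 427 and 813 RPKM at st6, 488 and 378 RPKM at st7, 517 and 535 RPKM at st8, and 768 and 673 RPKM at st10. In series 1 it was highest at st10, and in series 2 at st6.

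As a description of the values that chose the pair, the log2(RPKM + 1) of aug3.g21231 was 9.82 higher at st10 than at st1 and that of aug3.g24515 9.34 higher. The next gene model in the table, aug3.g9240 with no described function, stood just outside at 9.29. With the reads of both series pooled, aug3.g21231 went from 2 to 12503 reads, a ratio of 5551 after the library sizes are taken into account, with an exact 95% interval of 1536 to 45837. aug3.g24515 went from 1 to 6189 reads, a ratio of 5495 with an interval of 986 to 217070. These intervals cover counting error only, with the reads of both series pooled. They leave out the spread between the series and the choice of the pair by these same values. They are no test of the rise. By RPKM, aug3.g21231 ranked 12753 and 12629 among the 27990 gene models at st1 (series 1 and series 2), 618 and 499 at st4, and 50 and 72 at st10.

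The 2 gene models of the pair stayed in a narrow ratio to each other. Over the 15 libraries with at least 10 reads of each, aug3.g24515 per aug3.g21231 in RPKM lay between 0.633 and 1.28 with a median of 0.743 in 14, and was 4.45 in the st6 library of series 2. The 1.28 came from st3 of series 2, with 22 and 23 reads. In the st6 library of series 2, aug3.g21231 had 1089 reads and aug3.g24515 3607, where series 1 had 3869 and 2138. The summed RPKM of the pair at st6 was close between the series as deposited, at 1002 in series 1 and 995 in series 2. A ratio within a library does not depend on how libraries are scaled to each other, but this sum does. The sums are no longer close when divided by the median-ratio factors of these libraries, 1.053 in series 1 and 0.678 in series 2. Reads that match both gene models about equally were removed by the authors' filter on uniqueness, so each value can miss shared reads. How alike the sequences of the pair are was not analysed here. aug3.g21231 begins at the first base of its scaffold, and aug3.g24515 begins at base 2 of a scaffold with no other gene model and carries an ID not listed in the later assembly used here. Separate genes, pieces of 1 gene and 2 alleles cannot be told apart from these values, and the ratio, the order within the pair and the sums and shares of the family are therefore those of gene models.

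**Figure D2:**
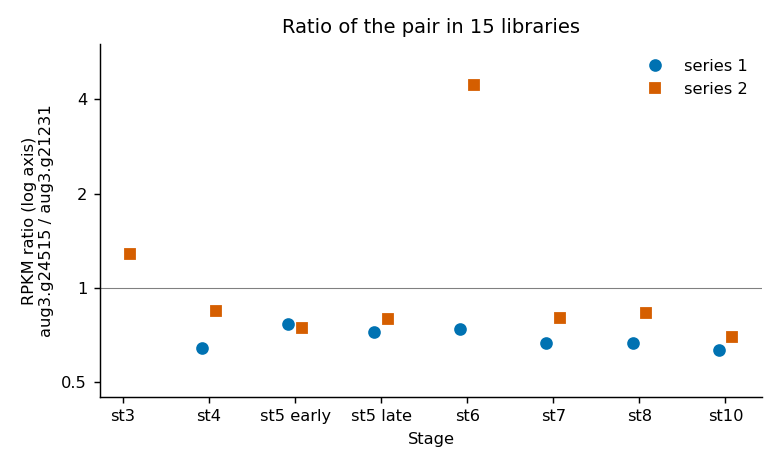
Ratio of aug3.g24515 to aug3.g21231 in RPKM, on a log axis, for the 15 libraries with at least 10 reads of each gene model. Circles are series 1 and squares series 2. All points lie between 0.633 and 1.28 except st6 of series 2, at 4.45.

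That library touched the other members too. Its log2(RPKM + 1) minus that of series 1 at st6 was -2.03 for aug3.g3973, -1.65 for aug3.g21231, 0.93 for aug3.g24515, 1.82 for aug3.g2362 and 0.47 for aug3.g2364, against a median of -0.35 over the 13375 gene models tested. The difference was lower in 2.42% of these gene models than in aug3.g3973 and higher in 1.14% than in aug3.g2362. Median-ratio scaling divides the st6 values by 1.053 in series 1 and 0.678 in series 2, which leaves the ratios inside a library as they were. Values that rest on st6 are therefore given by series, and the tests of consecutive steps are also given without st6 samples where that changes a call. What sets this library apart was not tested.

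aug3.g3973, the only member described as fatty acid-binding protein without the suffix -like, was the family's early transcript. It had 82 reads in series 1 and 256 in series 2 at st1, or 7.02 and 26.9 RPKM, so the series differed 3.83-fold at the start. Afterwards it was at 28.5 and 41.0 RPKM at st2, 44.3 and 49.0 RPKM at st3, 68.6 and 70.3 RPKM at st4, 67.1 and 59.1 RPKM at st5 early, and 122 and 86.1 RPKM at st5 late. From st3 to st4, where the pair rose steeply, the ratio for aug3.g3973 was 1.55 in series 1 and 1.44 in series 2. The change was 0.57 on the log2 scale with a standard error of 0.56 and did not pass the test (limma adjusted p = 0.47). At st6 the values parted, with 128 RPKM in series 1 against 30.6 in series 2. It then went through 205 and 186 RPKM at st7 and 297 and 346 RPKM at st8 to 1339 and 1495 RPKM at st10.

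From st1 to st10 the abundance of aug3.g3973 rose by 191-fold in series 1 and 55.6-fold in series 2. On the log2(RPKM + 1) scale this is 6.56 with a standard error of 0.56 (limma, Benjamini-Hochberg adjusted p = 1.5e-07), the 38th largest rise of the 13375 gene models tested. Of all gene models tested, 58.2% were called in this comparison and 23.2% were called higher. The last step alone was 4.51-fold in series 1 and 4.31-fold in series 2, or 2.14 on the log2 scale (standard error 0.56, limma adjusted p = 0.035), where 5.64% of gene models tested were called (4.17% higher and 1.47% lower). The change stayed between 2.03 and 2.25 under every alternative run, but its call did not hold. The limma adjusted p was 0.056 with a pseudocount of 0.1, 0.062 with no filter, and 0.051 to 0.30 when any 1 sample of st4, st7, st8 or st10 was left out. It was the only one of 27 pairs of a tested member and a consecutive step to pass, where 8.46% of such pairs passed over all gene models. By step, in order of stage, the share of all gene models called was 27.0%, 4.5%, 35.2%, 1.34%, 0.867%, 0.606%, 0.359%, 0.621% and 5.64%. The fit without both st6 samples has no step into or out of st6, and so holds fewer than 27 such pairs. Without st6 replicate 2, and without both st6 samples, 3 pairs passed, since the changes from st1 to st2 of aug3.g3973 (1.23, limma adjusted p = 0.034) and of aug3.g2362 (0.58, limma adjusted p = 0.036) were then called too. Without st6 replicate 1, when the st6 library of series 2 stands alone and is assumed to vary like the other stages, 7 passed. The added ones lead into and out of st6. The change of aug3.g3973 was -1.71 from st5 late to st6 (limma adjusted p = 0.026) and 2.63 from st6 to st7 (limma adjusted p = 0.0027). With both st6 samples its change from st6 to st7 was 1.62 (standard error 0.56, limma adjusted p = 0.31), which was 1.60-fold in series 1 and 6.07-fold in series 2.

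The order of the members by RPKM changed in the course of development. At st1, st2 and st3 aug3.g3973 was the most abundant, with values in the 2 series that did not overlap those of any other member. From st4 to st8 both gene models of the pair stood above it, again without overlap. Within the pair, aug3.g21231 lay above aug3.g24515 without overlap at st5 early, st5 late, st8 and st10, and the ranges over the series overlapped at the other 6 stages. At st10 aug3.g3973 was first again, at 1417 ± 110 RPKM (SD, n = 2), above aug3.g21231 at 1088 ± 178 RPKM and aug3.g24515 at 721 ± 67.5 RPKM (SD, n = 2). At that stage it ranked 41 in series 1 and 37 in series 2 among all 27990 gene models.

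Seen as shares of the family's summed RPKM, aug3.g3973 made up 93.1% in series 1 and 98.7% in series 2 at st1 and 84.0% and 75.4% at st3. It was at 23.4% and 19.0% at st4 and at 8.33% and 8.59% at st5 early. At st8 it was back at 18.6% and 22.7%, and at st10 at 40.3% and 47.7%. The family as a whole went from 7.55 and 27.3 RPKM at st1 through 52.8 and 65.0 RPKM at st3 and 293 and 370 RPKM at st4 to 3323 and 3131 RPKM at st10.

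**Figure D3:**
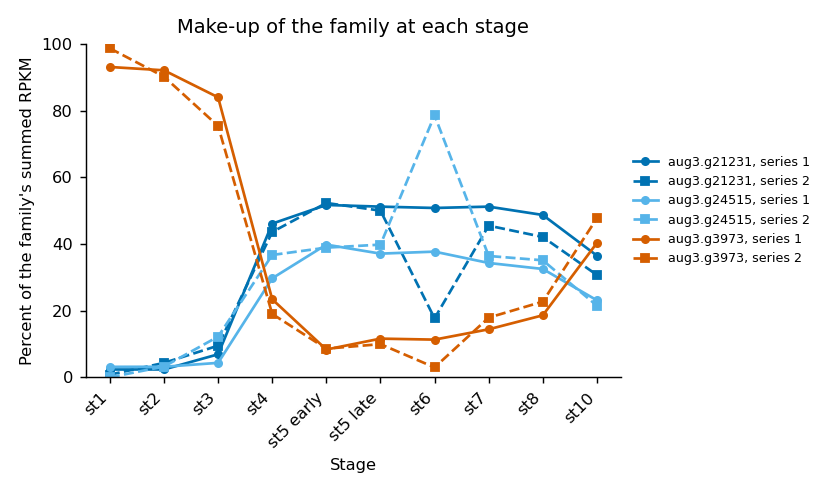
Share of the family's summed RPKM held by each of the 3 abundant gene models in each library, in percent. Solid lines with circles are series 1 and dashed lines with squares series 2. aug3.g3973 falls from over 75% at st3 to under 9% at st5 early and returns to 40.3% and 47.7% at st10.

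The gene models of scaffold 383 were weakly expressed, and the pseudocount of 1 holds their changes on the log2 scale near 0. From st1 to st10 aug3.g2362 changed by 0.90 with it and by 3.26 with voom weights on recovered reads. aug3.g2362 began with 1 and 0 reads at st1, then had 0.752 and 0.406 RPKM at st2, 1.81 and 1.16 RPKM at st3, 1.97 and 2.03 RPKM at st4, 1.65 and 1.27 RPKM at st5 early and 0.575 and 0.487 RPKM at st5 late. Up to st5 late these values were highest at st4, on 15 and 14 reads. With all samples, no step among these stages was called (limma adjusted p between 0.31 and 0.99). At st6 it was at 1.38 and 7.39 RPKM (15 and 71 reads), and from st7 to st10 it stayed between 0.627 and 1.12 RPKM. It differed across the 10 stages by the moderated F test (limma adjusted p = 0.011, and 8.3e-06 to 0.036 when any 1 sample was left out). Of all gene models tested, 79.8% differed across the stages. The change of 0.90 from st1 to st10 had a standard error of 0.40 and was not called (limma adjusted p = 0.064). This passed without st6 replicate 1 (adjusted p = 0.0013), without st6 replicate 2 (0.0012), with a pseudocount of 0.1 (0.0011), with voom weights on recovered reads (0.0073) and with only st1 and st10 fitted (0.0078), all with limma. The change into st6 was 1.55 (standard error 0.40, limma adjusted p = 0.10), and it became 2.45 without st6 replicate 1 (limma adjusted p = 0.00012), when the st6 value of series 2 stands alone. The change out of st6 then was -2.26 (limma adjusted p = 0.00013), against -1.36 with both samples (standard error 0.40, limma adjusted p = 0.25).

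aug3.g2364 had between 0 and 10 reads in every library, with its highest value in series 1 at st8 (1.06 RPKM) and in series 2 at st5 late (1.28 RPKM). It did not pass the test across the stages (limma adjusted p = 0.61) or from st1 to st10 (change 0.64, standard error 0.35, limma adjusted p = 0.14). In series 2 it was higher than in series 1 at 9 of 10 stages, by 0.38 on the log2 scale with stage in the model (standard error 0.12, limma adjusted p = 0.064). This difference passed with a pseudocount of 0.1 (limma adjusted p = 0.027), median-ratio scaling (0.048) and voom weights (0.043), and without the st8 sample of either series (0.014 in both cases). Of the 5 members, 0 differed between the series by limma, 1 had an unadjusted p under 0.05, and voom called 1, beside 10.5% called over all gene models tested.

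**Figure D4:**
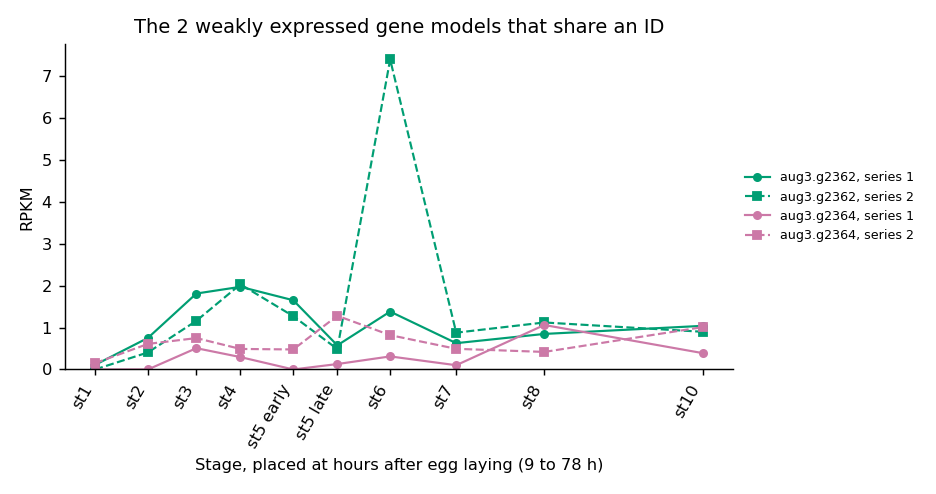
RPKM of aug3.g2362 (green) and aug3.g2364 (pink) in each library against hours after egg laying, with series 1 as solid lines and circles and series 2 as dashed lines and squares. Apart from aug3.g2362 at st6 of series 2 (7.39 RPKM), every value is 2.03 RPKM or less.

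The remaining members gave almost no signal. aug3.g13389 was at 0.193 RPKM at st3 and 0.115 RPKM at st7 of series 1, 1 read each at the shortest exon length that gives whole reads, and was listed at 0 in the other 18 libraries. aug3.g17785 was listed at 0 in all 20. At this depth a low abundance of either was not detectable. These gene models share a gene ID, and the authors' filter on uniqueness would have removed reads that match both about equally. A higher abundance could therefore also be missed. How alike their sequences are was not analysed here.

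The gene models most like each of the pair were found by Pearson's r of log2(RPKM + 1) over the 20 samples, which share libraries and denominators, as a description only. For aug3.g21231 they were aug3.g12453, an uncharacterized gene (r = 0.988), aug3.g3230, described as dipeptidyl peptidase 1, a lysosomal protease (0.986), and aug3.g24515 itself (0.986, and 0.998 without both st6 samples). For aug3.g24515 they were aug3.g3230 (0.989), aug3.g12453 (0.987) and aug3.g9228, a potassium channel of subfamily K (0.986). These 3 neighbours went from at most 0.623 RPKM at st1 to 256 RPKM for aug3.g12453, 246 RPKM for aug3.g3230 and 107 RPKM for aug3.g9228 at st10, as means of the series. Among the other members, r with aug3.g21231 was 0.763 for aug3.g3973, 0.317 for aug3.g2362 and 0.308 for aug3.g2364. The closest gene models to aug3.g2362, chosen for display after its st6 value was seen, shared that value. aug3.g27801, described as cyclin-dependent kinase 11B (r = 0.903), was at 21.0 and 82.5 RPKM at st6 and at most 38.3 RPKM elsewhere. aug3.g3115, a subunit of RNA polymerase II (r = 0.897), was at 46.9 and 187 RPKM at st6 and at most 64.6 RPKM elsewhere. Without both st6 samples the 2 values of r were 0.805 and 0.777.

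Enzymes that act before and after the carriers were followed as 5 lists matched on the descriptions, with muscle contractile proteins as a 6th list. Each is set beside all gene models tested from st1 to st10, of which 23.2% were called higher and 34.9% lower with a median change of -0.24 on the log2 scale. Median-ratio scaling moves that median by 0.24, and the changes below are relative to the deposited RPKM. No set test was run.

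Uptake and activation, the step that brings fatty acids into the cell and couples them to coenzyme A, was split. Of the 29 gene models tested, 10 were higher and 11 lower at st10, with a median of -0.20. With median-ratio scaling 12 were higher and 10 lower, and the median was 0.10. The long-chain fatty acid ligases aug3.g13804 (0.784 and 0.361 RPKM at st1, 43.9 and 34.1 RPKM at st10) and aug3.g510 (1 and 0 reads at st1, 21.2 and 17.2 RPKM at st10) rose most. Other ligases fell. aug3.g11356 went from 103 and 128 RPKM to 9.53 and 4.68 RPKM, and aug3.g1809 from 46.1 and 70.2 RPKM to 2.68 and 3.53 RPKM.

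Beta-oxidation, the breakdown of fatty acids to acetyl-CoA, had 12 higher, 5 lower and 16 not called of 33, with a median of 0.47. With median-ratio scaling 17 were higher and 3 lower, and with no filter 9 were higher and 5 lower. The short-chain acyl-CoA dehydrogenase aug3.g14576 had 0 reads in both series at st1 and 7.92 and 8.08 RPKM at st10. aug3.g4501 is among the gene models described as carnitine O-palmitoyltransferase 1, the gate for entry of fatty acids into mitochondria. It rose from 3.74 and 4.45 RPKM to 25.9 and 24.4 RPKM. Among the others, aug3.g4502 rose by 1.75 and aug3.g17212 fell by 0.80 on the log2 scale (both called). aug3.g18084 and aug3.g21178 changed by -0.68 and -0.38 and were not called. The isomerase aug3.g5416 fell by 2.42 and the peroxisomal oxidase aug3.g1102 fell by 2.00 on the log2 scale.

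Synthesis, elongation and desaturation went the other way, with 6 higher and 17 lower of 27 and a median of -1.37. In 6 of these 27 gene models 1 end of the comparison had 0 reads in both series, and with those set to 3 reads the median was -1.13. The elongase aug3.g15172 fell from 1201 and 1457 RPKM at st1 to 0.404 and 0.602 RPKM at st10, and the desaturase aug3.g10379 from 200 and 258 RPKM to 0 reads. The fatty acid synthase-like aug3.g3910 rose from 3 and 10 reads to 22.1 and 9.96 RPKM. Of the other fatty acid synthase models, aug3.g13989 fell by 1.65 and aug3.g20063 by 0.57 on the log2 scale (both called). aug3.g20062 and aug3.g6668 changed by 0.01 and 0.23 and were not called. The elongase aug3.g18984 rose from 0 reads to 6.53 and 7.88 RPKM. At the step from st3 to st4, where the pair rose steeply, 11 gene models of this list were lower. By limma 0 were higher, 0 at an unadjusted p under 0.05, and voom called 0 higher, while 1 was called without st6 replicate 1 and 1 without st6 replicate 2. Over all gene models tested, 35.2% were called at that step, 8.72% higher and 26.5% lower. Lower calls also outnumbered higher ones at that step in the other lists, with 10 lower and 2 higher of 29 for uptake, 9 and 5 of 33 for beta-oxidation, and 10 and 1 of 20 for triglyceride storage.

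Triglyceride storage had 1 higher and 12 lower of 20, with a median of -1.19 (3 higher and 12 lower with median-ratio scaling, and 2 higher without st10 replicate 1). The one that rose was aug3.g6127, described as lipid storage droplets surface-binding protein 2, a coat protein of lipid droplets in flies. It went from 0.183 and 0.168 RPKM at st1 (4 and 3 reads) to 116 and 96.1 RPKM at st10. This is a change of 6.50 on the log2 scale (standard error 0.58, limma adjusted p = 2.7e-07). aug3.g6128, described as another transcript variant of the same protein, changed by 0.43 and was not called. aug3.g15631, described as perilipin-2-like, fell by 1.90 (called). The acyltransferase aug3.g6010 fell by 3.18 and the last enzyme of triglyceride synthesis, diacylglycerol O-acyltransferase 1 (aug3.g15562), fell by 2.83 on the log2 scale, from 90.2 and 83.6 RPKM to 11.3 and 11.4 RPKM.

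Retinoid enzymes and receptors had 2 higher, 4 lower and 9 not called of 15, with a median of -0.13 (0.01 with median-ratio scaling). Both rises were of retinal dehydrogenases, which make retinoic acid in vertebrates. aug3.g6231 went from 3.28 and 13.8 RPKM to 131 and 126 RPKM, and aug3.g2992 from 2 reads in each series to 12.4 and 17.1 RPKM. Another retinal dehydrogenase, aug3.g2991, changed by -0.56 on the log2 scale and was not called. The carotene dioxygenase gene models aug3.g16558 and aug3.g11224, which share 1 gene ID, fell from 72.2 and 158 RPKM and from 46.7 and 101 RPKM to at most 2 reads.

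Muscle contractile proteins had 7 higher and 4 lower of the 15 gene models tested, of 41 matched, with a median of 0.55. The count of rises depended on the filter, with 14 higher when no filter was applied and 3 at a minimum of 5 RPKM. The tropomyosin aug3.g22072 rose from 0 reads to 6.54 and 4.78 RPKM and the titin aug3.g9685 from 0.0692 and 0.323 RPKM to 5.92 and 6.19 RPKM. Without either st10 sample 2 were lower. The paramyosin models aug3.g16192 and aug3.g16258 fell to at most 1 read. Also called lower were the troponin C-like aug3.g3638 and the troponin I aug3.g6555, with changes of -2.66 and -0.974 on the log2 scale. The call of aug3.g16258 rested on st1 of series 1, at 16.7 RPKM against 2.38 RPKM in series 2, and without st1 replicate 1 its limma adjusted p was 0.19. It was also lost without either st10 sample (limma adjusted p = 0.058 and 0.060). The part of muscle in the rise of the carriers was not tested.

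**Figure D5:**
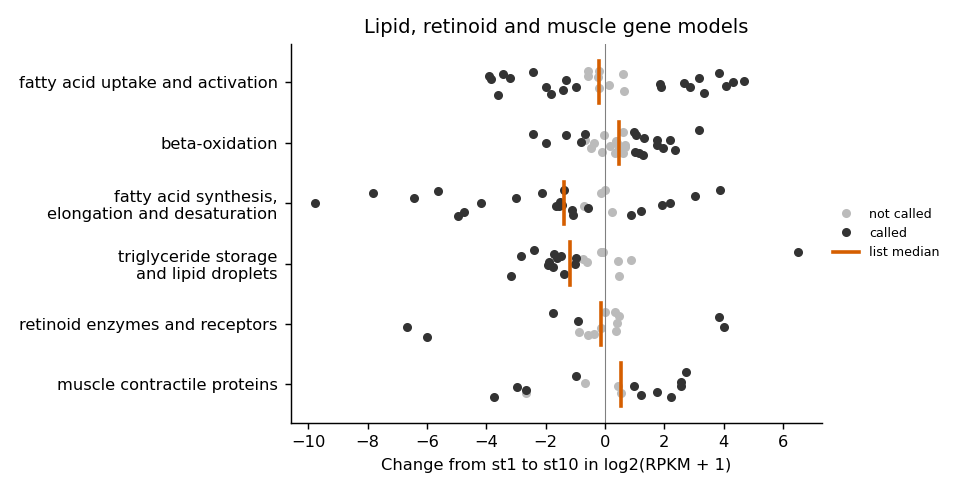
Change from st1 to st10 in log2(RPKM + 1) for each gene model of the 6 lists that passed the filter. Dark points were called by limma at an adjusted p under 0.05, grey points were not, and the orange bar is the median of the list, from -1.37 for synthesis, elongation and desaturation to 0.55 for muscle.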

How the data were processed

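The authors trimmed the reads, aligned them with BLAT to Ptep_1.0, kept alignments of sufficient coverage, identity and uniqueness, counted them by strand on gene models with htseq-count (HTSeq 0.6.1p1 in the submitters' processing notes) and deposited RPKM, used here as given. All 20 value columns matched a sample by name. Library read totals and gene model exon lengths were worked out from the steps between RPKM values. Whole reads came out for 99.87% of gene models with reads, within 1e-05 reads plus the rounding of the file.

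Tests used limma 3.58.1 (R 4.3.3) on log2(RPKM + 1), which understates changes of weakly expressed genes, with trend, over 13375 gene models at 1 RPKM or more in 2 samples or more, 10 stage means, 10 residual degrees of freedom and Benjamini-Hochberg adjustment (call under 0.05). RPKM values are not counts, so the main tests used no count model. An alternative run used voom on the recovered reads. Tested on simulated data, limma on log2(RPKM + 1) called more unchanged gene models than its threshold allows. The paper states no test. The shared spread takes all stages as equally variable. The members, lists and tests were chosen with earlier results of these data known. Named were all members with reads, the 2 largest called rises and falls of each list, and the 3 gene models most like each of the pair.

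The replicate number names the pair of parents, which pairs the samples. Over 45 pairs of stages, the series 2 minus series 1 differences of both stages had a median correlation of 0.24 (-0.06 to 0.70). Alternatives were another pseudocount, filter or scaling, the replicate block, 2-stage fits, voom, no stage term, samples left out and each series alone. Python 3.11.15, numpy 2.4.6, pandas 2.3.3, scipy 1.17.1 and matplotlib 3.10.9 did the rest.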

Additional observations from a re-analysis of the deposited data

How the results depend on the processing

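Across the stages 2 of the 3 tested members were called, and 1 with a minimum RPKM of 5, which removed aug3.g2362 and aug3.g2364. From st1 to st10 1 was called, and 2 with a pseudocount of 0.1, voom weights, only the 2 stages compared or without both st6 samples (1 to 2 when 1 sample was left out). Of the 27 member and step pairs 1 was called, 0 with no filter, 2 with median-ratio scaling and 3 without both st6 samples (0 to 7 when 1 sample was left out, with 2 without st1 replicate 2). Between the series 0 of 5 were called, and 1 with a pseudocount of 0.1, median-ratio scaling or voom weights (0 to 1 when 1 sample was left out). The replicate block changed no call of a member, and called 95 gene models of the 6 lists from st1 to st10 against 91 without it. The cause of these moves was not tested. The fit without both st6 samples has no step into or out of st6, so it holds fewer than 27 member and step pairs. The rise of the pair from st1 to st10 on the log2 scale was 11.84 for aug3.g21231 and 11.94 for aug3.g24515 with a pseudocount of 0.1, and 11.85 and 11.61 with voom. Of the 65 values followed through the alternatives, among them the st1 to st10 changes of the members and list genes named, 0 changed direction. Many of the 65 are counts or calls, which cannot change direction. The pair and the list genes were named for the size of their change, so their direction was in part set by that choice. Single steps were not all among the 65. The series went opposite ways for aug3.g3973 and aug3.g21231 from st5 late to st6 and for aug3.g24515 from st6 to st7. Reads below 3 at st1 limit every fold from st1 for the pair and for aug3.g2362.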
